A study of Mus musculus with 26 samples.

Results

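Genes named Zfp and a number encode zinc finger proteins, most of them with arrays of C2H2 fingers that bind DNA. Their accessible chromatin was profiled in Kupffer cells, the macrophages that reside in the liver, with ATAC-seq, an assay that maps where a transposase can cut DNA. Members were the peaks that the deposited annotation assigns to a gene named Zfp followed by digits only, without Zfp36 (tristetraprolin, which binds RNA rather than DNA), and that lay at most 10000 bp from the transcription start site. This gave 732 of the 96381 peaks of the inbred strains, at 307 genes, which is 307 of the 371 genes of that naming in RefSeq. Another 501 of the 1233 peaks so named lay farther out. The last peaks inside the limit were at 9957 bp from Zfp827, with a mean normalised count of 9.32 in control and 3.76 in LPS libraries, and at 9786 bp from Zfp217, with 13.7 and 26.4. The first peaks outside were at 10018 bp from Zfp131 (37.6 and 34.2) and at 10032 bp from Zfp87 (10.1 and 20.0).

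Cells were sorted from livers of male mice of the inbred strains A/J, BALB/cJ and C57BL/6J and of CB6F1/J, the first-generation cross of the latter pair. Per the labels, whose protocol text is the same for all samples, control mice were fasted overnight without an injection (n = 4 A/J, 4 BALB/cJ, 4 C57BL/6J and 4 CB6F1/J), and treated mice were fasted and received 0.1 mg/kg lipopolysaccharide (LPS, a bacterial cell wall component) into the peritoneum for 2 h (n = 3 C57BL/6J, 2 BALB/cJ and 5 CB6F1/J). There was no sham injection, no LPS group of A/J, and livers of all groups were digested in the presence of the transcription inhibitor flavopiridol. Mice were 8 to 12 weeks old. Group sizes are those of the labels. A legend in the study gives those of the inbred LPS groups the other way round, and the labels of the hybrid LPS samples cite data named chow. Deposited counts of the hybrid controls carry the name chow and not control. They were matched to the control samples by title, and all results on hybrid controls, alleles included, rest on that match. Libraries of LPS and control mice carry different dates in their file headers, so the effects of LPS and of date cannot be told apart.

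Values are tags in a window of 1000 bp around the peak, scaled by TMM library factors to a common library size (normalised counts). The 17 inbred libraries held between 2079333.5 and 7536815.5 tags in nuclear peaks, except replicate 4 of the BALB/cJ controls with 47196703. Values of the inbred LPS libraries were deposited as whole counts and those of the controls in steps of 0.5 tags. Of the 3 C57BL/6J LPS libraries, replicate 1 stood nearest to the controls at 25 of the 29 Zfp peaks that rose in both strains, and lay inside the range of its controls at 8 of them, against 0 and 1 for the others. Counts of calls for C57BL/6J under LPS, and the tests of Zfp456, Zfp658, Zfp366 and Zfp281, are therefore also given without it. In the hybrid, perfectly mapped tags exceeded the deposited count of all tags at 37.9 to 69.6% of the autosomal peaks of a control library, and at 0.0089 to 0.0122% in LPS libraries. A subset cannot exceed its whole, so LPS tests in the hybrid are given for both counts. Promoters of the 10 Kupffer cell markers, among them Clec4f, Timd4 and Vsig4, all had a peak (mean normalised count 14.9 to 428 in controls). Their sums were 1240 to 1560 in control and 725 to 1030 in LPS libraries. No promoter peak was found at the markers of hepatocytes (0 of 5), lymphocytes (0 of 4) or stellate cells (0 of 3), and 2 of 4 neutrophil markers (sums of 21.6 to 94.0 over the libraries) and 2 of 4 sinusoidal endothelial markers (10.2 to 80.5) had one. The promoter peak of Camp, a neutrophil granule peptide, was higher with LPS, at a mean of 14.0 against 3.22 in BALB/cJ and 25.8 against 4.27 in C57BL/6J (log2 ratios 2.59 ± 0.94 and 2.79 ± 0.81, edgeR adjusted p = 0.0312 and 0.00949). That of S100a8, the other neutrophil marker with a peak, was not called with LPS. It was lower in A/J than in BALB/cJ controls (log2 ratio -1.45 ± 0.29, edgeR adjusted p = 0.000833). The promoter peak of Kdr, an endothelial marker, fell with LPS in BALB/cJ (-1.94 ± 0.75, edgeR adjusted p = 0.0428). Outside promoters, the lymphocyte marker Ms4a1 had a peak at +4992 bp that rose in C57BL/6J and BALB/cJ (3.65 ± 0.88 and 5.91 ± 1.08, edgeR adjusted p = 0.00235 and 8.81e-05). The part of cell composition in the results was not tested.

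The largest class of these proteins joins the fingers to a KRAB domain. The domain recruits TRIM28, which brings histone H3 lysine 9 methyltransferases and heterochromatin proteins, and many members silence retroelements. KRAB zinc finger genes sit in clusters that expand by duplication and that differ in content between mouse strains and species. Other Zfp genes have no KRAB domain and encode regulators of transcription, of ubiquitin or SUMO pathways, or of blood, fat and epithelial lineages.

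The sequences of 9 peaks are given because the strain, LPS and allele results rest on them. All are whole peaks of mm10, read on the forward strand, and overlap no RefSeq exon. Capitals mark letters of motifs searched on both strands: AP-1 as TGANTCA, PU.1 as GAGGAAGT, NF-kB as GGGNNTTCC, NRF1 as GCGCATGC and ZFP143 as ACTACAA. A match describes the sequence and does not show that a factor bound. Of all peaks over 1000 bp from a start, 16.8% held the AP-1 letters, 10.0% those of PU.1, 4.62% those of NF-kB, 0.442% those of NRF1 and 1.93% those of ZFP143. The first pair lies between genes in front of Zfp493, at chr13:67772393-67772593 and chr13:67778522-67778722, and was open in C57BL/6J. The next lies in front of Zfp40, between genes at chr17:23193557-23193757, and was higher on the BALB/cJ side. It is a promoter peak, and of all peaks within 1000 bp of a start 3.66% held the PU.1 letters.
Zfp493 at -7200 bp: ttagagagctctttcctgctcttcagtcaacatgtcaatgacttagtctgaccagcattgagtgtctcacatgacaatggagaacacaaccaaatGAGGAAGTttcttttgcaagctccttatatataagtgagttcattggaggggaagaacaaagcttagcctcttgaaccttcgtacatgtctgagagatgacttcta
Zfp493 at -1071 bp: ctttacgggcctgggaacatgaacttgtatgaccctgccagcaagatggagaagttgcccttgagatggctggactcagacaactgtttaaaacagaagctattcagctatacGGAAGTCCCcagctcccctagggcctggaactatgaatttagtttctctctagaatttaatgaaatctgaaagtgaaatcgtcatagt
Zfp40 at -405 bp: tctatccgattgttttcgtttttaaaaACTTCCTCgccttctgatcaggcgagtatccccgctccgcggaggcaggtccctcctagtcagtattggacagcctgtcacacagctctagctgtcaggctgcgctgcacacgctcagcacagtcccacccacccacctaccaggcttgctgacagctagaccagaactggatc

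A further 4 peaks were picked from the 22 that rose with LPS in both strains and, on perfectly mapped tags, in the hybrid. Each of the 4 held the AP-1 letters, which stood in 11 of the 18 distal Zfp peaks that rose in both strains. Those of Zfp456 (chr13:67380748-67380948), Zfp658 (chr7:43554595-43554795) and Zfp366 (chr13:99181326-99181526) lie between genes, and that of Zfp318 (chr17:46388298-46388498) in its intron.
Zfp456 at -5085 bp: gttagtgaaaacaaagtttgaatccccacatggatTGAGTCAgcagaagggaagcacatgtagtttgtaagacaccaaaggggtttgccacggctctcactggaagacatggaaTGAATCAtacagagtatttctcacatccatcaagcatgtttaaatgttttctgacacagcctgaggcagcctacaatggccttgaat
Zfp658 at -7675 bp: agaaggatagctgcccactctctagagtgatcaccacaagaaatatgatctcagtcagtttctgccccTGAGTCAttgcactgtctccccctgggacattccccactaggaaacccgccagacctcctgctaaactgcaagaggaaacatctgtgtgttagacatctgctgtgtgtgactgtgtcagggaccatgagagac
Zfp366 at -3397 bp: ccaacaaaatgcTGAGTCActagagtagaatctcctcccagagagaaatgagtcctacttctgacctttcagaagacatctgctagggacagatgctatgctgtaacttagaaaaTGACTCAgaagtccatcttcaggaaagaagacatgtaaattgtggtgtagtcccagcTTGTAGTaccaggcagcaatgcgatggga
Zfp318 at +4632 bp: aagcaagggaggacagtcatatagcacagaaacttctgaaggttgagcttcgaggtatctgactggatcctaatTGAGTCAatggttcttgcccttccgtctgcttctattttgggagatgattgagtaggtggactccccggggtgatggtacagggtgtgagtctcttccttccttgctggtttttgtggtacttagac

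The last 2 are the intronic peak of Zfp386 (chr12:116054488-116054688), which was lower in A/J, and the peak in front of Zfp692 (chr11:58301154-58301354, in an intron of the predicted gene Gm39827), which was higher on the BALB/cJ allele.
Zfp386 at +6864 bp: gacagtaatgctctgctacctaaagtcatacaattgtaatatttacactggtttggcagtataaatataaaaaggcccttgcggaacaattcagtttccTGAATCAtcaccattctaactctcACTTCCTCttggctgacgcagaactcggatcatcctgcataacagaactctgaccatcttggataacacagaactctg
Zfp692 at -5815 bp: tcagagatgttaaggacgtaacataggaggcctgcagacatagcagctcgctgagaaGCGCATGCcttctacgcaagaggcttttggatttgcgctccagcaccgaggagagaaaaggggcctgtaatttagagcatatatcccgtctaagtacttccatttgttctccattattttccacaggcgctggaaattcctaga

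Zfp peaks were mostly promoter peaks. Of the 732, 482 (65.8%) lay within 1000 bp of the start, against 22.0% of all nuclear peaks, and 295 of the 307 genes had such a peak. The distance limit of the rule removes far peaks from the members and not from the rest. The annotation placed 347 at a promoter, 210 in introns, 101 between genes, 26 in 5′ and 9 in 3′ untranslated regions and 26 in coding exons. The number per gene ranged from 1 (123 genes) to 12 (Zfp516 and Zfp608), with 11 at Zfp703 and 10 each at Zfp710 and Zfp366. Those with many peaks included Zfp516, a regulator of brown fat, Zfp608, which represses the Rag genes in thymocytes, and Zfp366 (DC-SCRIPT), a regulator of dendritic cells. Peaks were concentrated on chromosome 7 (176 peaks at 83 genes), followed by 17 (75 at 40 genes), 13 (70 at 31 genes) and 8 (58 at 22 genes).

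Runs of at least 5 of these genes with neighbouring starts up to 250000 bp apart formed 13 clusters, with 119 genes and 221 peaks. The largest was on chromosome 13, where the starts of 19 genes from Zfp712 to Zfp273 spanned chr13:67061101-67813977 and carried 37 peaks. A cluster at chr17:21383763-22424209 held 18 genes with 32 peaks, and one at chr7:29768450-30167256 held 14 genes with 24. Because clustered genes resemble each other, 30-base stretches of every peak were looked up in mm10. In 23 Zfp peaks (3.14%) at least 50% of these stretches occurred elsewhere in the genome, against 1.25% of all peaks, and tags there cannot be placed with certainty. Counting windows of 404 Zfp peaks (55.2%) overlapped that of another peak, against 45.8% of all, so that neighbours share tags.

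Most members were found in all groups. Of the 732, 390 (53.3%) overlapped a reproducible peak in each of the 5 inbred groups, against 39.8% of all nuclear peaks. Among promoter peaks the shares were 64.3% and 60.4%. Of Zfp peaks over 1000 bp from a start, 80 (32.0%) were in every list and 61 (24.4%) in 1 list. Base composition differed little from that of other promoters, with a median GC content of 59.0% in Zfp promoter peaks and 62.2% in all, and 11 and 14 CpG dinucleotides per peak. The letters of ZFP143 stood in 5.39% of Zfp promoter peaks and 2.39% of all, those of the CRE (TGACGTCA) in 2.9% and 1.83%, those of an ETS site (CCGGAAGT) in 5.6% and 4.17%, and those of YY1 (AAGATGGC) in 3.11% and 2.4%. PU.1 letters stood in 2.49% and 3.66%, NRF1 letters in 3.73% and 2.69%, NF-kB letters in 3.94% and 5.45%, AP-1 letters in 5.81% and 5.64% and E-box letters (CACGTG) in 6.43% and 7.2%. These shares were not tested.

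At the promoter, Zfp genes covered a wide range of accessibility. The strongest peak within 1000 bp of the start had a median over genes of 79.1 normalised counts in control libraries (range 7.39 to 692, 295 genes), against 89.5 over 12532 genes. For Zfp genes that peak was picked by the mean of control and LPS libraries, and for all genes by the mean of controls. The highest was Zfp654, at 692 ± 68.9 (SD, n = 12), with libraries from 594 to 804. It stood at the 99.9th percentile of all promoter peaks. Zfp317 (580), Zfp446 (551), Zfp869 (543) and Zfp367 (543) followed, and ranges of neighbouring genes in this order overlapped. The lowest were Zfp366 (8.48), Zfp947 (8.47), Zfp239 (7.76), Zfp599 (7.53) and Zfp442 (7.39). Zfp442 was read in a peak with 53.5% repeated sequence.

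**Figure D1:**
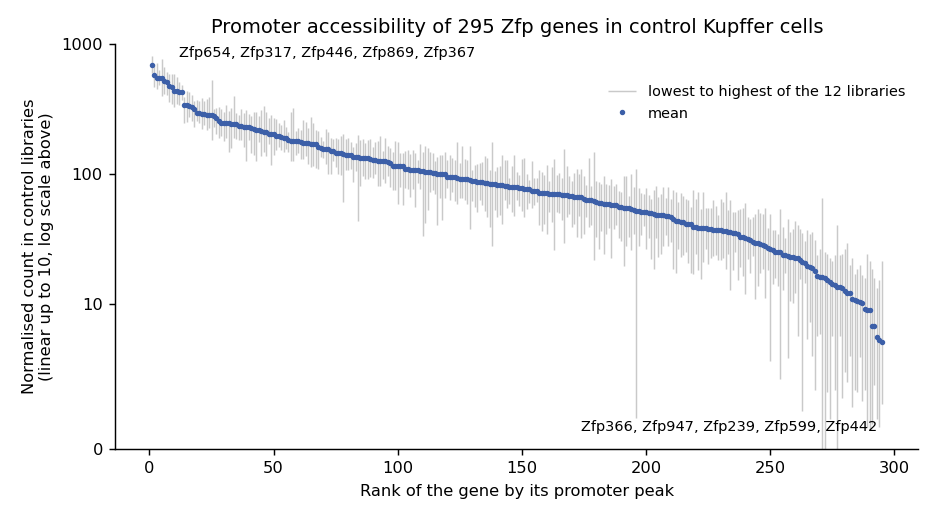
Promoter accessibility of 295 Zfp genes in control Kupffer cells: the x axis ranks genes by the mean of their strongest peak within 1000 bp of the start and the y axis gives the normalised count (linear up to 10, log scale above), with the mean as a point and the lowest to highest of the 12 inbred control libraries as a line. Means run from 692 at Zfp654 to 7.39 at Zfp442, and lines of neighbouring genes overlap.

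Strain differences were asked of control mice first. Between C57BL/6J and BALB/cJ, 497 Zfp peaks had the mean normalised count above 16 needed for the test. In C57BL/6J, 22 were higher and 6 lower (edgeR quasi-likelihood test, two-sided, Benjamini-Hochberg adjusted p under 0.05 over all peaks and an absolute log2 ratio over 1). The backgrounds over all 52386 tested peaks were 3.14% higher and 4.16% lower. At promoters, 12 of 387 Zfp peaks were higher and 6 lower, against 1.75% and 1.17% of all promoter peaks. Of 110 peaks farther out, 10 were higher and 0 lower, against 3.61% and 3.74% of all peaks at 1000 to 10000 bp. Clusters held 163 of the 497 peaks tested, with 13 higher and 3 lower. The chromosome 13 cluster alone had 6 higher and 2 lower of 32. Without peaks whose windows overlap, the counts came to 12 in both directions together. Leaving out replicate 1 of the C57BL/6J controls left 18, and leaving out replicate 2 of the BALB/cJ controls gave 35.

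Zfp493, in the chromosome 13 cluster, carried both of the Zfp493 peaks shown above. At -7200 bp the C57BL/6J controls read 91.0, 80.2, 100 and 108 normalised counts. BALB/cJ controls read 0, 0, 0 and 1.57, and A/J controls 3.08, 1.09, 2.03 and 0. The peak thus read high in C57BL/6J alone among these strains, and C57BL/6J did not overlap the other groups. The log2 ratio of C57BL/6J to BALB/cJ was 6.31 ± 0.45 (SE; edgeR adjusted p = 5.69e-13), and that of A/J to C57BL/6J was -5.91 ± 0.51 (edgeR adjusted p = 8.81e-11). At -1071 bp the C57BL/6J controls of Zfp493 read 87.0, 57.8, 84.5 and 59.8, BALB/cJ 0, 4.88, 0 and 1.01, and A/J 1.54, 1.09, 0 and 0. The C57BL/6J to BALB/cJ log2 ratio was 5.72 ± 0.47 (edgeR adjusted p = 2.46e-11). The peak of Zfp493 at its start (+455 bp, chosen after its values were seen) was open in every library, at 71.8 to 81.8 in C57BL/6J, 26.8 to 58.5 in BALB/cJ and 24.4 to 44.9 in A/J controls. It was 1.10 ± 0.27 higher in C57BL/6J than in BALB/cJ on the log2 scale (edgeR adjusted p = 0.00533).

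Among peaks above the minimum count, those of Zfp691 were called in BALB/cJ against both other strains. They lie within the neighbouring gene Ermap, which encodes an erythroid membrane protein, at chr4:119177806-119178006 in a non-coding part of an exon (-3711 bp) and chr4:119178353-119178553 in a coding exon (-4258 bp), and their windows share bases. At -3711 bp the A/J controls read 145, 121, 203 and 188, C57BL/6J 136, 109, 181 and 132, and BALB/cJ 2.64, 0.975, 4.03 and 3.87. Zfp691 thus read near 0 at this peak in BALB/cJ and was open in both other strains. The log2 ratio to BALB/cJ was 5.35 ± 0.32 for C57BL/6J (edgeR adjusted p = 7.48e-15) and 5.57 ± 0.32 for A/J (edgeR adjusted p = 5.69e-15), comparisons that share the BALB/cJ libraries. At -4258 bp, A/J read 36 to 97.7, BALB/cJ 2.64 to 12.1 and C57BL/6J 97.1 to 158. The log2 ratio of C57BL/6J to BALB/cJ was 4.18 ± 0.32 (edgeR adjusted p = 2.99e-12).

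Other peaks were open in C57BL/6J and read near 0 in both other strains. Per the study's methods, the BALB/cJ and A/J pseudogenomes leave out larger structural variants. Inbred counts near 0, here and at the peaks above, thus cannot tell closed chromatin from sequence that the strain lacks. The peak of Zfp951 at -73 bp (chr5:104860041-104860241) read 42.9, 46.5, 65.0 and 34.6 in C57BL/6J. BALB/cJ controls read 1.32, 0.975, 0 and 0 there and A/J controls 0, 0, 2.03 and 0, and 48.3% of its sequence was repeated. The intronic peak of Zfp146 at +2485 bp (chr7:30167156-30167356) read 30.1, 30.5, 33.8 and 53.2 in C57BL/6J against 0, 0, 1.34 and 0 in BALB/cJ, a log2 ratio of 7.75 ± 0.75 (edgeR adjusted p = 1.06e-09). At Zfp446 +9513 bp the C57BL/6J to BALB/cJ log2 ratio was 5.24 ± 0.86 (edgeR adjusted p = 2.7e-05). Groups did not overlap at these peaks of Zfp951, Zfp146 and Zfp446.

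Zfp568, which represses a placental promoter of Igf2, was lower in C57BL/6J than in the other strains at a peak in its intron. Its strongest promoter peak (-168 bp) was not called between strains. The peak in its intron (+305 bp, chr7:29984160-29984360) read 9.28, 17.7, 10.4 and 12 in C57BL/6J. BALB/cJ controls read 80.4, 112, 44.3 and 28.9, and A/J controls 75.5, 108, 46.8 and 23.5. All C57BL/6J libraries lay below all others. The log2 ratio of C57BL/6J to BALB/cJ was -2.45 ± 0.43 (edgeR adjusted p = 8.04e-05). In the chromosome 13 cluster the promoter of Zfp459 was lower in C57BL/6J too, at 12.8 to 16.2 against 34.3 to 61.7 in BALB/cJ (log2 ratio -1.60 ± 0.34, edgeR adjusted p = 0.00107). Zfp458 had peaks of opposite sign, at 5.04 ± 0.69 at -679 bp (84.3% repeated sequence) and -1.43 ± 0.35 at +248 bp (43.0% repeated). At the Zfp40 promoter (-405 bp) C57BL/6J read 14.5, 25.7, 29.9 and 14.6 and BALB/cJ 39.6, 52.7, 38.9 and 58. The log2 ratio was -1.23 ± 0.34 (edgeR adjusted p = 0.0133), and the groups did not overlap.

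**Figure D2:**
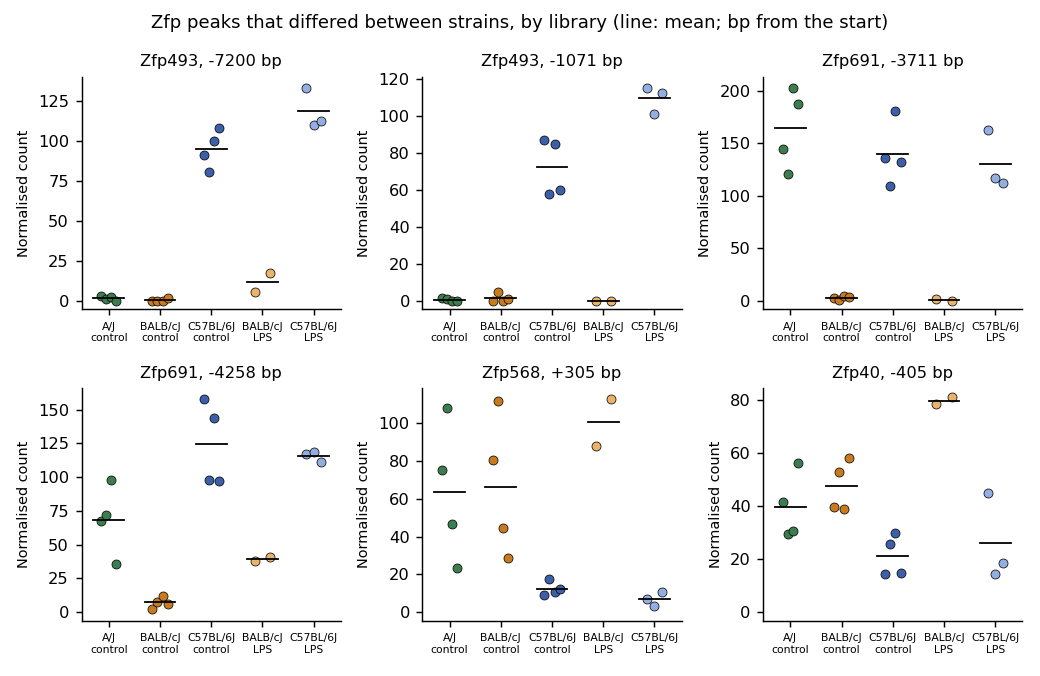
Normalised count per library (y axis, linear) at 6 Zfp peaks in the 5 inbred groups (x axis), with 1 point per library and the group mean as a line. Both Zfp493 peaks are near 0 in A/J and BALB/cJ controls and at 57.8 to 108 in C57BL/6J controls, Zfp691 is near 0 in BALB/cJ controls, and Zfp568 and Zfp40 are lower in C57BL/6J.

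A/J differed from BALB/cJ at fewer Zfp peaks. Of 489 tested, 5 were higher in A/J and 4 lower (backgrounds 1.58% and 3.0%). Leaving out single libraries gave 5 (without replicate 1 of A/J) to 10 calls (without replicate 2 of BALB/cJ). Against C57BL/6J, 8 of 512 were higher in A/J and 23 lower (backgrounds 3.29% and 3.87%), and the 170 tested in clusters held 5 and 14 of these. The promoter of Zfp597 (chr16:3872265-3872465, +9 bp), a gene that shares its start region with Zfp174, read 102, 108, 116 and 156 in A/J. BALB/cJ controls read 46.1, 41.9, 36.2 and 51.2, and C57BL/6J controls 43.5, 30.5, 66.3 and 29.3. A/J was above every other library, at a log2 ratio of 1.43 ± 0.25 to BALB/cJ (edgeR adjusted p = 0.000148). The intronic peak of Zfp386 shown above read 69.4, 68.9, 146 and 147 in A/J. BALB/cJ controls read 248, 161, 325 and 316, and C57BL/6J controls 226, 191, 243 and 235. A/J was below all of them (log2 ratio to BALB/cJ -1.31 ± 0.22, edgeR adjusted p = 7.69e-05). At the Zfp870 promoter (-66 bp) A/J read 6.1 to 17.2 and BALB/cJ 26.6 to 35.6, a log2 ratio of -1.24 ± 0.34 (edgeR adjusted p = 0.0185).

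Some strain differences lay at Zfp genes of known role. Among genes of silencing, 2 of 14 tested peaks were higher in C57BL/6J than in BALB/cJ and 1 lower (the Zfp568 peak above), beside backgrounds of 3.14% and 4.16%. The higher ones, named after their values were seen, were at Zfp809, which silences murine leukaemia virus DNA (1.23 on the log2 scale), and Zfp932, which binds endogenous retroviruses (1.16). Among lineage genes 1 of 35 was higher, at Zfp703, a cofactor in breast epithelium (1.16, also named after its values were seen), and among 13 peaks of signalling and 38 of transcription genes the edgeR test called 0. In A/J, calls at genes of these roles were again named after their values were seen. Zfp598, a ubiquitin ligase that acts on stalled ribosomes, was higher in A/J than in BALB/cJ (1.93 on the log2 scale, 1 of 14 signalling peaks, background 1.58%), and a peak at -6115 bp of Zfp281 was lower (-1.23, 1 of 40 transcription peaks, background 3.0%). Against C57BL/6J, A/J was lower at the promoter of Zfp217 (-1.36, 1 of 40 transcription peaks) and at Zfp516 (-1.17, 1 of 33 lineage peaks), with a background of 3.87%, and higher at Zfp568 (2.45, 1 of 14 silencing peaks, background 3.29%).

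Under LPS, C57BL/6J and BALB/cJ were compared at 505 Zfp peaks, of which 10 were higher and 6 lower in C57BL/6J (backgrounds 2.45% and 2.83%). Calls fell to 10 in all without replicate 2 of the BALB/cJ LPS group, and numbered 15 without replicate 1 of the C57BL/6J LPS group. Of the 22 peaks higher in C57BL/6J controls, 6 (27.3%) were among the 10 higher under LPS (60% of those), and 3 of 6 lower ones (50.0%) were lower again. Overlap between treatments was counted for Zfp peaks only, so it has no share over all peaks to be read against. Zfp691 at -3711 bp again read high in C57BL/6J (163, 117 and 112) and near 0 in BALB/cJ (1.74 and 0). Zfp493 at -1071 bp read 115, 101 and 112 against 0 and 0, at least 83.4-fold higher when 3 counts over the group stand for 0. The Zfp951 peak was at least 25.6-fold higher on the same floor. Zfp568 at +305 bp read 7.02, 3.4 and 10.4 against 88.0 and 113, a log2 ratio of -3.84 ± 0.54 (edgeR adjusted p = 5.13e-06). At the promoter of Zfp148, which binds GC-rich elements, C57BL/6J read 16.9, 26.3 and 35.0 and BALB/cJ 13.9 and 2.64 (log2 ratio 1.68 ± 0.49, edgeR adjusted p = 0.032). That call was lost without replicate 2 of the BALB/cJ LPS group (0.97 ± 0.53, edgeR adjusted p = 0.472) or replicate 2 of the C57BL/6J LPS group (1.68 ± 0.53, edgeR adjusted p = 0.0621).

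The response of Zfp peaks to LPS in the inbred strains was split by position, with more falls than rises at promoters. In C57BL/6J, 39 of 726 Zfp peaks rose and 89 fell (edgeR, as above with a minimum mean of 4; backgrounds 12.3% and 8.07%). Without replicate 1 of the LPS group the counts were 42 and 100, and without replicate 3 they were 26 and 64. In BALB/cJ, 72 of 719 rose and 105 fell (backgrounds 16.2% and 11.3%), and without replicate 2 of the LPS group 54 and 61. At promoters 14 of 478 rose and 65 fell in C57BL/6J, against 2.85% and 15.6% of all promoter peaks, and 30 of 477 rose and 81 fell in BALB/cJ, against 5.49% and 20.0%. At 1000 to 10000 bp, 25 of 248 rose and 24 fell in C57BL/6J, against 12.1% and 6.78%. In BALB/cJ 42 of 242 rose and 24 fell, against 17.6% and 9.07%. The Zfp shares were thus near those of all peaks at promoters and, in BALB/cJ, at 1000 to 10000 bp. At that distance in C57BL/6J, 10.1% of Zfp peaks rose and 9.68% fell, against 12.1% and 6.78% of all. The part of position in the surplus of falls among all members was not tested. For C57BL/6J the median log2 ratio was -0.23 over Zfp peaks and -0.03 over all, and for BALB/cJ -0.11 and -0.07. Scaling moved the calls over all peaks. In C57BL/6J 11323 rose and 7421 fell, and with libraries scaled by total counts 12907 and 5852. In BALB/cJ 15164 rose and 10584 fell, and with total counts 16997 and 8441.

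**Figure D3:**
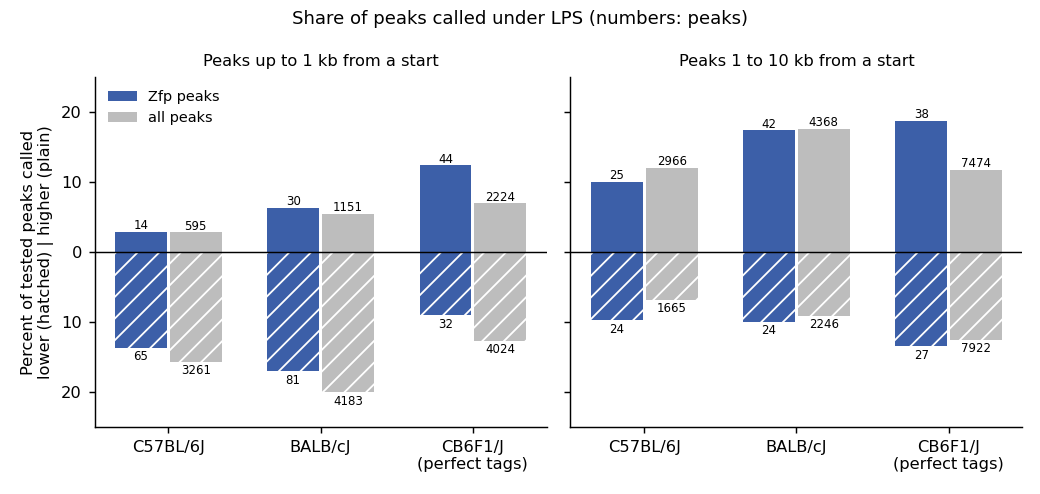
Share of tested peaks called under LPS (y axis, percent; plain bars above 0 higher, hatched bars below 0 lower, with the number of peaks) for Zfp peaks (blue) and all peaks (gray) up to 1 kb (left) and 1 to 10 kb (right) from a start, in both inbred strains and, for perfectly mapped tags, in the hybrid. Falls exceed rises at promoters in both inbred strains, at 65 against 14 Zfp peaks in C57BL/6J and 81 against 30 in BALB/cJ.

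Calls of the strains overlapped, with 29 peaks that rose in both (74.4% of those in C57BL/6J, 40.3% of those in BALB/cJ), 59 that fell in both (66.3% and 56.2%) and 0 called in opposite directions. The strains' comparisons share no library. At promoters 11 Zfp peaks rose in both, of 14 in C57BL/6J and 30 in BALB/cJ (over all peaks 470, of 595 and 1151). There 45 Zfp peaks fell in both, of 65 and 81 (over all peaks 2268, of 3261 and 4183). Over 1000 bp from a start 18 Zfp peaks rose in both, of 25 and 42 (over all peaks 8245, of 10728 and 14013). At that distance 14 Zfp peaks fell in both, of 24 and 24 (over all peaks 2330, of 4160 and 6401). AP-1 letters were found in 11 of the 18 distal Zfp peaks that rose in both strains (61.1%; all such peaks 52.3%), in 0 of 14 that fell (all 3.48%) and in 14 of 159 called in neither (8.81%; all 10.5%). At promoters the numbers were 4 of 11 that rose (36.4%; all 45.1%), 0 of 45 that fell (all 1.19%) and 12 of 343 called in neither (3.5%; all 4.65%). GC content at Zfp promoter peaks was 68.2% (median) where they fell, 46.3% where they rose and 58.7% in neither. Over all promoter peaks the medians were alike, at 68.7%, 49.8% and 61.7%. These shares are descriptions without a test.

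Several distal peaks rose with LPS from low control values. Zfp456, in the chromosome 13 cluster, read 2.64, 0, 1.34 and 0.276 in BALB/cJ controls at -5085 bp and 5.23 and 20.2 under LPS. In C57BL/6J it read 1.16, 1.6, 0 and 1.33 in controls and 1.4, 17.8 and 37.4 under LPS, with replicate 1 inside the control range. The log2 ratios of Zfp456 were 4.25 ± 1.04 (edgeR adjusted p = 0.00175) and 4.15 ± 0.95 (edgeR adjusted p = 0.00129), the latter 4.67 ± 0.86 without replicate 1 (edgeR adjusted p = 8.45e-05). Zfp658 at -7675 bp read at most 6.59 in BALB/cJ controls and 16.6 and 23.7 under LPS, and 0 to 5.32 in C57BL/6J controls and 0, 25.5 and 32.7 under LPS. Its log2 ratios were 3.18 ± 0.84 in BALB/cJ (edgeR adjusted p = 0.00357) and 2.86 ± 0.79 in C57BL/6J (edgeR adjusted p = 0.00673), where Zfp658 gave 3.42 ± 0.68 without replicate 1 (edgeR adjusted p = 0.000192) but lost its call without replicate 3 (2.33 ± 0.90, edgeR adjusted p = 0.0735).

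Larger rises in normalised count were found at Zfp40 and Zfp493. At +5235 bp (chr17:23187893-23188093, in a non-coding part of an exon of Zfp40) the BALB/cJ controls read 1.32, 5.85, 2.68 and 6.54 and the LPS libraries 56.6 and 96.7. Its C57BL/6J controls read 1.16, 3.21, 6.5 and 1.33 and the LPS libraries 12.6, 60.3 and 86.0. No LPS library overlapped the controls of Zfp40, at log2 ratios of 3.92 ± 0.54 (edgeR adjusted p = 1.41e-06) and 4.28 ± 0.61 (edgeR adjusted p = 3.82e-06). The peak also held the AP-1 letters. The start-proximal peak of Zfp493 (+455 bp, chr13:67780048-67780248) read 177 and 184 under LPS in BALB/cJ, above its controls by 2.33 ± 0.30 on the log2 scale (edgeR adjusted p = 4.04e-07). In C57BL/6J it read 92.7, 198 and 252, a log2 ratio of 1.26 ± 0.26 (edgeR adjusted p = 0.000563), which came to 0.98 ± 0.29, under the threshold of size, without replicate 3. Both parents of the hybrid thus opened Zfp493 at its start, although its upstream peaks were open in C57BL/6J controls and near 0 in BALB/cJ controls.

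Lineage genes had 3 of 55 peaks higher and 9 lower in C57BL/6J, and 8 higher and 10 lower of 56 in BALB/cJ. All tested peaks were called higher at 12.3% and lower at 8.07% in the former strain, and at 16.2% and 11.3% in the latter. Zfp366, a regulator of dendritic cells, read 0 in each BALB/cJ control at -3397 bp and 13.1 and 22.9 under LPS. In C57BL/6J the same peak of Zfp366 read 2.32, 4.81, 2.6 and 0 in controls and 2.81, 22.1 and 15.9 under LPS (log2 ratio 2.54 ± 0.77, edgeR adjusted p = 0.0138). Without replicate 1 the ratio at Zfp366 was 3.01 ± 0.74 (edgeR adjusted p = 0.00221), and without replicate 2 the call was lost (2.07 ± 0.90, edgeR adjusted p = 0.109). Zfp318, which B cells need to make IgD, rose at its intronic peak from 22.4, 31.2, 17.4 and 24.1 to 91.5 and 104 in BALB/cJ. In C57BL/6J Zfp318 read 22.6, 20.9, 23.4 and 13.3 in controls and 30.9, 63.7 and 88.4 under LPS. The log2 ratios were 2.02 ± 0.35 and 1.61 ± 0.34 (edgeR adjusted p = 2.9e-05 and 0.000514). The peak of Zfp609 at -3872 bp, chosen after its values were seen, rose by 2.76 ± 0.56 in BALB/cJ and 2.55 ± 0.65 in C57BL/6J (edgeR adjusted p = 0.000234 and 0.00342). Zfp608 went the other way. Its intronic peak at +6905 bp, also chosen after its values were seen, read 16.1 to 29.0 in BALB/cJ controls against 3.48 and 5.28, and 20.8 to 33.6 in C57BL/6J controls against 4.21, 5.94 and 7.17.

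Genes of transcription had 4 of 57 peaks higher and 4 lower in C57BL/6J and 6 and 5 of 57 in BALB/cJ, beside the same backgrounds of 12.3% and 8.07%, and 16.2% and 11.3%. At the promoter of Zfp148 (chr16:33380764-33380964) BALB/cJ controls read 68.6, 66.3, 47.0 and 50.2 and LPS libraries 13.9 and 2.64. Its C57BL/6J controls read 58, 75.4, 46.8 and 49.2 and LPS libraries 16.9, 26.3 and 35.0. The log2 ratios of Zfp148 were -2.78 ± 0.46 (edgeR adjusted p = 1.88e-05) and -1.09 ± 0.34 (edgeR adjusted p = 0.0158), with no overlap. The latter call was lost without replicate 1 of the C57BL/6J LPS group (-0.86 ± 0.36, edgeR adjusted p = 0.0691) or replicate 2 (-1.05 ± 0.40, edgeR adjusted p = 0.0621). Zfp281, which binds GC-rich elements and recruits NuRD, had a peak at +4036 bp (chosen after its values were seen) with 0 to 3.96 in BALB/cJ controls and 20.9 and 22.0 under LPS, and with 1.3 to 4.81 in C57BL/6J controls and 4.21, 17.8 and 21.5 under LPS (log2 ratio of the latter strain 2.77 ± 0.73, edgeR adjusted p = 0.00452, and 3.20 ± 0.71, edgeR adjusted p = 0.000728, without replicate 1). An intronic peak of Zfp384, which binds A/T-rich elements and overlaps 4930557K07Rik there, rose in BALB/cJ at +435 bp by 3.66 ± 0.82 on the log2 scale (edgeR adjusted p = 0.000738). Silencing genes had 1 of 19 peaks higher and 2 lower in C57BL/6J, and 0 and 3 of 20 in BALB/cJ. Signalling genes had 0 and 3 of 24, and 2 and 1 of 23. The backgrounds are those given for lineage genes.

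**Figure D4:**
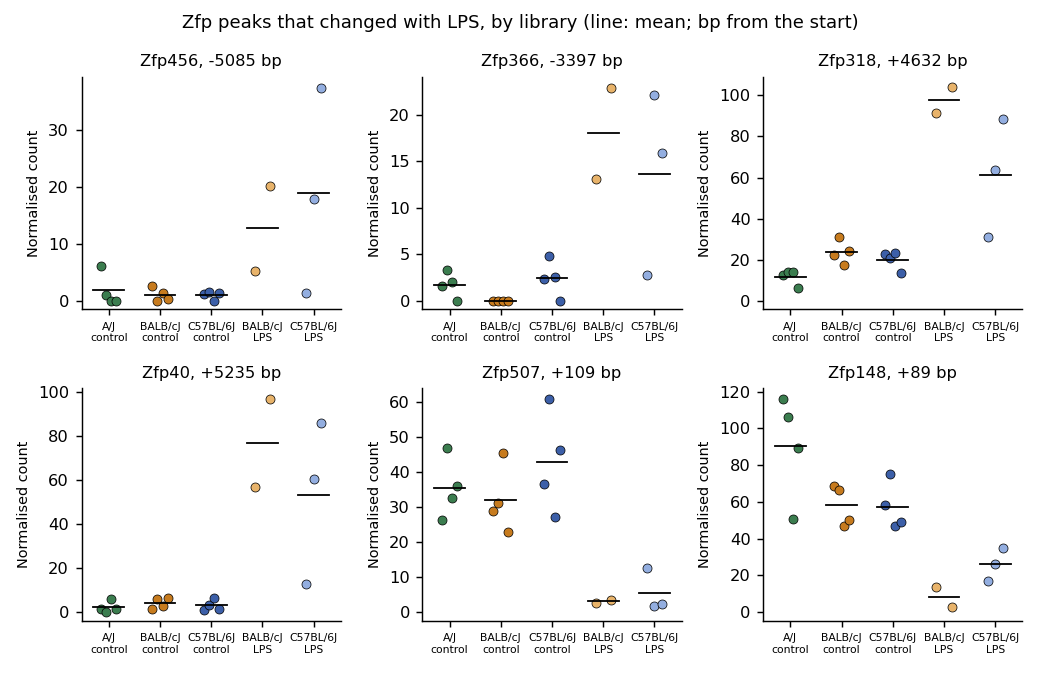
Normalised count per library (y axis, linear) at 6 Zfp peaks in the 5 inbred groups (x axis), with 1 point per library and the group mean as a line. Zfp456, Zfp366, Zfp318 and Zfp40 rise under LPS in both strains, with 1 C57BL/6J LPS library lower than the others, and the promoters of Zfp507 and Zfp148 fall.

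Promoters that fell included those of Zfp507, Zfp511 and Zfp868 (the latter pair chosen after its values were seen). Zfp507, at chr7:35802780-35802980, read 29.0, 31.2, 45.6 and 22.8 in BALB/cJ controls and 2.61 and 3.52 under LPS, and 36.5, 61.0, 27.3 and 46.5 in C57BL/6J controls and 12.6, 1.7 and 2.39 under LPS. The log2 ratios were -3.31 ± 0.62 and -3.14 ± 0.50 (edgeR adjusted p = 8.6e-05 and 2.02e-05). Zfp511 fell by 3.05 and 2.21 on the log2 scale in BALB/cJ and C57BL/6J, and Zfp868 by 2.89 and 2.38. A few start-proximal peaks rose instead. The peaks of Zfp945 (+618 bp), Zfp760 (+938 bp), Zfp65 (+896 bp) and Zfp811 (-45 bp) were picked out after their values were seen. Zfp945 read 28.2 to 62.6 in BALB/cJ controls and 208 and 239 under LPS, and 42.5 to 78.3 in C57BL/6J controls and 84.3, 282 and 233 under LPS. Its log2 ratios were 2.2 ± 0.31 and 1.9 ± 0.29.

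Many peaks with repeated sequence fell. Of the 23 such Zfp peaks, 2 rose and 11 fell in C57BL/6J, and 1 of 18 tested rose and 10 fell in BALB/cJ, where 42.9% and 38.9% of all repeated peaks fell. In the hybrid, for perfectly mapped tags, 1 of 19 rose and 3 fell, against 10.4% and 24.2% of all repeated peaks. On all tags 1 of 19 rose and 4 fell there, against 15.4% and 11.6%. The promoter of Zfp931, wholly repeated (100%), read 14.5, 19.5, 40.3 and 0 in BALB/cJ controls and 0 and 0 under LPS, and 6.38, 16, 10.4 and 9.31 in C57BL/6J controls and 0, 0 and 0 under LPS. That of Zfp934 (88.4% repeated) read 40.9, 37.1, 110.0 and 2.12 in BALB/cJ controls and 0 and 0 under LPS. The peak of Zfp991 at -7059 bp (84.9%) read 31.6, 30.2, 49.7 and 1.29 in BALB/cJ controls. In all 3 peaks, the lowest BALB/cJ control was replicate 4, the deepest library, at or near the values of the LPS libraries. The median over the 23 Zfp peaks was 7.65 in it, 11.7 to 18.8 in the other BALB/cJ controls and 1.76 to 3.48 under LPS. The part of read placement in these falls was not tested.

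The difference of the responses between C57BL/6J and BALB/cJ was tested directly, as the interaction of strain and LPS. Of 731 Zfp peaks, 0 were higher and 2 lower (backgrounds 0.108% and 0.0368%). An unadjusted edgeR p under 0.05 was found at 72 of the 731, and at 7485 of the 95050 peaks tested over all. Both called Zfp peaks had been called between strains in control mice. Zfp691 at -4258 bp rose in BALB/cJ from 2.64, 7.8, 12.1 and 6.27 to 37.5 and 40.5 (log2 ratio 2.50 ± 0.37, edgeR adjusted p = 4.17e-06). In C57BL/6J Zfp691 read 158, 97.9, 144 and 97.1 in controls and 117, 119 and 111 under LPS, and the strain difference in response was -2.62 ± 0.46 (edgeR adjusted p = 0.0024). The neighbouring Zfp691 peak at -3711 bp, with a shared window, stayed at 1.74 and 0 in BALB/cJ. Zfp493 at -7200 bp read 5.23 and 17.6 in BALB/cJ under LPS, above its controls (log2 ratio 3.26 ± 0.58, edgeR adjusted p = 4.5e-05), and 133, 110.0 and 112 in C57BL/6J. The strain difference at Zfp493 was -2.94 ± 0.65 (edgeR adjusted p = 0.0467), and the call was lost in 11 of the 13 fits that leave out a library, where Zfp691 was the remaining call.

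In the hybrid, 557 of the 732 peaks (76.1%, at 267 genes) could be matched. On all tags 61 of 557 rose with LPS and 30 fell (backgrounds 16.3% and 10.7%). The split depended on scaling, with 44 and 66 when libraries were scaled by total counts and 51 and 48 in DESeq2, while the median of all peaks moved from -0.07 to -0.39 and -0.25. On perfectly mapped tags, a count chosen after seeing the data, 82 rose and 59 fell (backgrounds 14.3% and 10.5%). On variant-spanning tags, which tell the parental alleles apart, 17 rose and 16 fell of 120, against 3932 and 3212 of 27217 peaks over all. A direction for Zfp peaks as a group is therefore not given for the hybrid. At promoters 44 of 355 rose and 32 fell on perfectly mapped tags, against 6.97% and 12.6% of all promoter peaks, and on all tags 20 and 13, against 6.27% and 9.01%. Farther out 38 of 202 rose and 27 fell on perfectly mapped tags (11.8% and 12.5% of all peaks at that distance), and 41 and 17 on all tags (14.7% and 9.85%). Peaks called the same way in both inbred strains and in the hybrid numbered 22 higher and 24 lower on perfectly mapped tags, and 16 and 5 on all tags. This overlap was counted for Zfp peaks only, so no share over all peaks stands beside it.

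The 4 peaks with AP-1 letters shown above were among the former. On perfectly mapped tags Zfp456 at -5085 bp read 10.4, 1.4, 1.28 and 2.25 in control hybrids and 135, 172, 159, 134 and 102 under LPS, a log2 ratio of 5.02 ± 0.45 (edgeR adjusted p = 7.96e-10), and 4.04 ± 0.32 on all tags (edgeR adjusted p = 3.49e-12). Zfp658 rose from 9.41, 4.19, 0 and 13.5 to 183, 129, 133, 173 and 191 (4.49 ± 0.43, edgeR adjusted p = 2.41e-09, and 3.94 ± 0.30 on all tags, edgeR adjusted p = 1.79e-12). Zfp366 rose from 5.65, 18.2, 0 and 11.2 to 59.7, 87.7, 86.2, 49.3 and 64.6, and Zfp318 from 48.9 to 73.1 in controls to 190.0 to 386 under LPS. No LPS hybrid overlapped a control hybrid at these peaks on perfectly mapped tags. On all tags the log2 ratios were 3.02 ± 0.38 at Zfp366 and 3.14 ± 0.24 at Zfp318 (edgeR adjusted p = 9.83e-08 and 3.09e-12). Zfp40 at +5235 bp rose by 3.84 ± 0.31 (edgeR adjusted p = 1.21e-10) and by 3.65 ± 0.24 on all tags (edgeR adjusted p = 1.01e-13), and Zfp493 at +455 bp read 102 to 164 in controls and 835 to 1050 under LPS (all tags 1.98 ± 0.16 on the log2 scale, edgeR adjusted p = 4.17e-12). Among the 24, Zfp507 read 93.2, 106, 145 and 55.1 in controls and 35.7 to 53.2 under LPS (-1.08 ± 0.31, edgeR adjusted p = 0.009), but was not called on all tags (-0.28 ± 0.28, edgeR adjusted p = 0.454). Zfp148 was lower by less than the threshold (-0.70 ± 0.17, edgeR adjusted p = 0.00201), and on all tags its ratio had the other sign and missed the threshold too (0.40 ± 0.18, edgeR adjusted p = 0.0916).

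Both parental alleles share a nucleus in the hybrid, so a comparison of alleles holds the cell and its surroundings equal. Per the study, BALB/cJ was the mother and C57BL/6J the father of the hybrids. The effects of allele and of parent of origin thus cannot be told apart. Tags that span a variant allowed 54 Zfp peaks to be tested in each treatment, at a mean normalised count over 16. In controls 4 were higher on the C57BL/6J allele and 1 lower (backgrounds 5.95% and 5.57%), and under LPS 5 and 2 (backgrounds 8.6% and 6.8%), by edgeR with a term for each animal. Of 103 tested for an allele difference in the response, 0 were higher and 0 lower (backgrounds 0.0% and 0.0%). In edgeR 11 of them had an unadjusted p under 0.05, against 1418 of 18218 peaks over all. DESeq2 called 0 Zfp peaks, against 63 of 18211 peaks over all.

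The 4 peaks higher on the C57BL/6J allele in controls were the peaks of Zfp691 and Zfp493 that separated the strains. At -3711 bp of Zfp691, variant-spanning tags from the C57BL/6J and BALB/cJ alleles numbered 45 and 3, 62 and 2, 49 and 3, and 80 and 7 in the 4 control animals. The C57BL/6J share was 92.0 to 96.9%, and 87.1 to 94.0% in the 5 LPS animals. The allelic log2 ratio of Zfp691 was 3.92 ± 0.28 in controls (edgeR adjusted p = 0.000103), beside 5.35 ± 0.32 between the strains. At -4258 bp the C57BL/6J share was 79.3 to 100% in controls and 68.8 to 86.7% under LPS. The allelic log2 ratios there were 3.17 ± 0.54 and 1.67 ± 0.37 (edgeR adjusted p = 0.00427 and 0.0107). The shares at Zfp691 -4258 bp overlapped between treatments.

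At Zfp493 -7200 bp the control animals gave 31 and 9, 29 and 6, 53 and 3, and 28 and 1 tags from the C57BL/6J and BALB/cJ alleles, shares of 77.5 to 96.6%. Under LPS shares were 86.8 to 92.0%. Allelic log2 ratios of Zfp493 were 2.84 ± 0.40 (edgeR adjusted p = 0.00183) and 3.01 ± 0.31 (edgeR adjusted p = 0.000283). At -1071 bp shares were 80.9 to 96.2% in controls and 88.7 to 97.5% under LPS, with ratios of 2.80 ± 0.43 and 4.22 ± 0.37. In every animal the C57BL/6J allele of Zfp493 gave the larger number of tags. The BALB/cJ allele gave 1 to 17 tags per animal at these peaks of Zfp493.

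The Zfp40 promoter was higher on the BALB/cJ allele under LPS. Under LPS its C57BL/6J share at -405 bp was 26.0, 27.8, 26.8, 26.9 and 23.1% (95, 74, 49, 92 and 59 tags against 270, 192, 134, 250 and 196), a log2 ratio of -1.53 ± 0.25 (edgeR adjusted p = 0.00236). The BALB/cJ allele was higher in 5 of 5 LPS animals, as BALB/cJ libraries read 78.4 and 80.9 against 44.9, 14.4 and 18.3 in C57BL/6J (log2 ratio -1.69 ± 0.40, edgeR adjusted p = 0.00629). That call between the strains at Zfp40 was lost without replicate 2 of either group (edgeR adjusted p = 0.0576 and 0.0722). In control hybrids the shares at Zfp40 spread from 10.8 to 54.5%. Zfp692, named for binding an AICAR-response element, had peaks of opposite allelic sign under LPS. Its peak at -5815 bp had C57BL/6J shares of 12.5 to 34% (-2.09 ± 0.48, edgeR adjusted p = 0.0126), and its promoter shares of 65.2 to 79.1% (1.39 ± 0.30, edgeR adjusted p = 0.01). Between inbred strains under LPS neither Zfp692 peak was called. At the Zfp960 promoter (34.9% repeated sequence) the control share was 22.0 to 42.6% (-1.11 ± 0.24, edgeR adjusted p = 0.0125), and the inbred controls overlapped, at 44.6 to 66.3 in C57BL/6J and 28.2 to 61.7 in BALB/cJ.

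**Figure D5:**
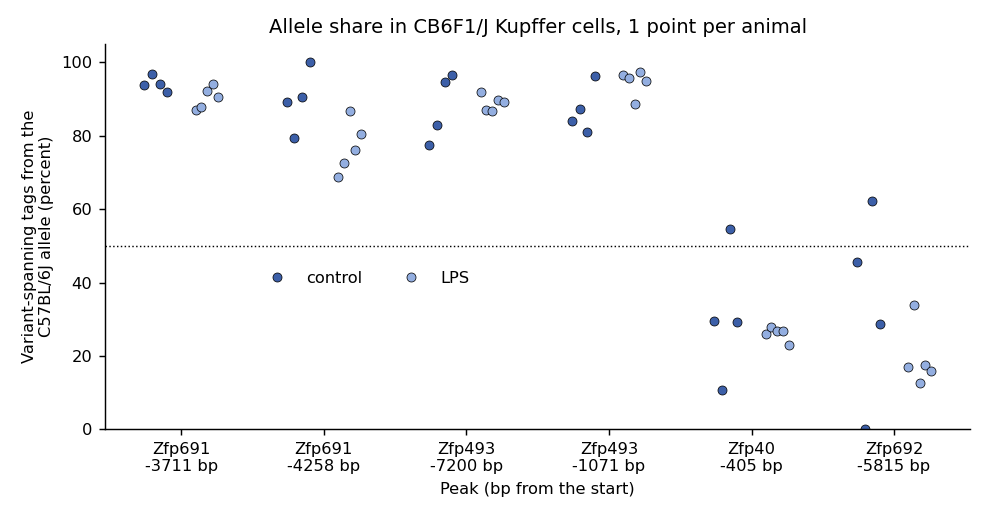
Share of variant-spanning tags from the C57BL/6J allele (y axis, percent) at 6 Zfp peaks (x axis) in CB6F1/J Kupffer cells, with 1 point per animal (4 controls, 5 LPS) and a dotted line at equal shares. Both Zfp691 and both Zfp493 peaks lie at 68.8 to 100%, and Zfp40 and Zfp692 at 12.5 to 34% under LPS with wider control values.

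The genes through which KRAB zinc finger proteins silence DNA were read from the same table, within 10000 bp of 26 genes. Between strains in control mice 0 of 47 peaks were called for C57BL/6J against BALB/cJ, 0 of 45 for A/J against BALB/cJ, and 1 of 50 for A/J against C57BL/6J. That peak was at Morc3, lower in A/J by a log2 ratio of -1.62 ± 0.40 (edgeR adjusted p = 0.00609). Over all tested peaks 3.14% were higher and 4.16% lower in the first of these comparisons. The shares were 1.58% and 3.0% in the second and 3.29% and 3.87% in the third. With LPS 8 of 76 rose and 12 fell in C57BL/6J, and 7 of 72 rose and 13 fell in BALB/cJ. Backgrounds were 12.3% and 8.07%, and 16.2% and 11.3%. Trim28, the shared corepressor, fell within 1000 bp of its start by 1.44 and 1.67 on the log2 scale in C57BL/6J and BALB/cJ, at different peaks. Promoters of Cbx1, a heterochromatin protein (-1.80 ± 0.32 and -2.81 ± 0.40), and of the chromatin remodeler Smarcad1 (-2.0 ± 0.28 and -2.71 ± 0.34) fell in both strains. A peak at -4514 bp of Dnmt1, the maintenance DNA methyltransferase, rose in both (3.01 ± 0.83 and 5.17 ± 0.93). The median log2 ratio over the list was -0.34 in C57BL/6J and -0.45 in BALB/cJ, against -0.03 and -0.07 over all peaks and -0.40 and -0.45 over all promoter peaks.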

How the data were processed

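Per the study's methods, ATAC-seq reads were trimmed to 30 bp and aligned with Bowtie2 to mm10 or, for BALB/cJ and A/J, to pseudogenomes with that strain's variants. HOMER merged reproducible peaks and counted tags in windows of 1000 bp. Tool versions are not given in the sources used here. The authors deposited raw counts for the inbred LPS libraries and, in steps of 0.5 tags, estimated counts for the other libraries. These were rounded to whole numbers. TMM scaling and two-sided quasi-likelihood tests in edgeR 4.0.16 (R 4.3.3) ran over all nuclear peaks (autosomal peaks in the hybrid) with Benjamini-Hochberg adjustment, and DESeq2 1.42.0 was the alternative. Inbred groups shared 1 model. Hybrid peaks were matched at 50% reciprocal overlap with bedtools 2.31.1. Calls needed an adjusted p under 0.05, an absolute log2 ratio over 1 and a mean normalised count over 16 (strains, alleles) or 4 (LPS, interactions). The tests were checked on simulated data. Libraries of a group are biological replicates per the methods, and p-values measure the spread between them. In the hybrid controls perfectly mapped tags exceeded all tags, so both counts were used. Peaks named are up to 5 each way per comparison with the largest change, 1 per gene, promoter peaks of genes with listed roles, the 5 highest and lowest promoters, peaks called alike in strains and alleles, and called genes of the fixed lists. The members and lists were chosen with earlier results of these data known. Peak calls of single libraries were not used here. RefSeq (GRCm38) gave neighbouring genes and sequence.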

Additional observations from a re-analysis of the deposited data

Results flagged for a closer look

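Within groups of 4 or 5 libraries, 17 of 213 group values of the peaks reported had 1 library far from the others by Dixon's test, which chance alone gives in about 1 of 20. In normalised counts, BALB/cJ control replicate 3 read 1.34 at Zfp146 +2485 bp where the others were at 0.0, and C57BL/6J control replicate 4 read 53.2 there (others 30.1 to 33.8). C57BL/6J control replicate 2 read 4.81 at Zfp281 +4036 bp (1.3 to 1.74) and 3.21 at Zfp719 -8117 bp (1.16 to 1.33), and replicate 1 read 78.3 at Zfp945 (42.5 to 46.5). A/J control replicate 4 read 0.0 at Zfp384 +435 bp (4.07 to 4.63) and 14.1 at Zfp609 -3872 bp (6.1 to 6.56), and replicate 3 read 2.03 at Zfp951 -73 bp (others 0.0). BALB/cJ control replicate 4 read 5.53 at Zfp442 (3.9 to 4.03) and 1.57 at Zfp493 -7200 bp (others 0.0). Replicate 1 read 6.59 at Zfp446 +9513 bp (0.0 to 0.975), and replicate 2 read 58.5 at Zfp493 +455 bp (26.8 to 30.4).

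On perfectly mapped tags in the hybrid, control replicate 3 read 71.8 at Zfp40 -405 bp (47.2 to 50.3) and control replicate 1 read 10.4 at Zfp456 -5085 bp (1.28 to 2.25). Control replicate 2 read 26.5 at Zfp811 (12.2 to 13.5) and 72.6 at Zfp931 (41.6 to 43.6), and LPS replicate 1 read 113 at Zfp811 (53 to 68.6).

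The response to LPS differed between C57BL/6J and BALB/cJ by the interaction test at Zfp493 -7200 bp (-2.94 on the log2 scale) and Zfp691 -4258 bp (-2.62). At both, BALB/cJ rose from low control values and C57BL/6J stayed at its high ones. The first call was lost in 11 of 13 fits that left out 1 library.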

How the results depend on the processing

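For the 170 results on single named peaks, 2576 alternative values were computed: 2386 kept direction and side of the threshold, 190 kept the direction but missed the threshold, and 0 turned sign. Only results called in the main fit were followed. Alternatives in which the peak fell under the minimum count or was left out gave no value and are not in these numbers. Counts moved more. Leaving out peaks with overlapping windows, which removes peaks from the test, left 12 calls of 28 for C57BL/6J against BALB/cJ controls, 4 of 9 for A/J against BALB/cJ, 11 of 31 for A/J against C57BL/6J, 5 of 16 between C57BL/6J and BALB/cJ under LPS, 64 of 128 for LPS in C57BL/6J, 82 of 177 in BALB/cJ, 0 of 2 for the strain difference in response, 22 of 91 in the hybrid, 0 of 5 for alleles in controls and 1 of 7 under LPS. Doubling the minimum count left 15, 5 and 18 calls in the control strain comparisons, in the order above, and 2 and 4 for alleles. Without a minimum there were 25 calls between strains under LPS, and 1 and 3 for alleles. DESeq2 called 8 for alleles in controls. The strain difference in response had 1 call without repeated sequence and 1 with only the groups compared in the fit. In the hybrid, variant-spanning tags gave 33 calls and perfectly mapped tags, chosen after seeing the data, 141. The causes were not tested.

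Leaving out 1 library gave 18 to 35 calls for C57BL/6J against BALB/cJ controls, 5 to 10 for A/J against BALB/cJ, 23 to 32 for A/J against C57BL/6J, 10 to 17 between strains under LPS, 90 to 142 for LPS in C57BL/6J, 115 to 183 in BALB/cJ, 1 to 2 for the strain difference, 88 to 99 in the hybrid, 4 to 6 and 6 to 9 for alleles, and 0 to 0 for the allele difference. Where a count moved by over 1.5 times, the library left out was C57BL/6J control replicate 1 (18), A/J replicate 1 (5), BALB/cJ LPS replicate 2 (10 between strains under LPS, 115 for LPS in BALB/cJ) and each library but BALB/cJ control replicate 4 and BALB/cJ LPS replicate 1 for the strain difference (1).

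Replicate numbers were not taken to pair the samples, since not every pair correlated: over 29 pairs of same-numbered libraries the correlation of deviations was -0.097 to 0.375, with 9 over 0.1, and 13 correlated best with their own number. Control libraries numbered 2 (0.235 to 0.375) and 4 (0.201 to 0.36) did correlate best with their own number in each pair of strains, and those numbered 1 and 3 gave 0.054 to 0.118. With the number as a block, calls between strains under LPS rose from 16 to 26, and the control comparison gave 31 in place of 28. Without the term for each animal, alleles gave 6 and 8 calls.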
